A study of Homo sapiens with 9 samples.

Results

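The genes described here lie on the long arm of chromosome 7, in the stretch 7q31 to 7q36. They were the protein-coding genes of GRCh38 that start between positions 108560000 and 158960000 and had a mean of at least 4 CPM (reads of a gene scaled to the total of its library) over 9 RNA sequencing libraries. Of 290 protein-coding genes in that window, 163 were below the limit, 42 of them with no counts at all, and 6 above it (CNTNAP2, INSIG1, POT1, NDUFA5, NDUFB2 and GALNT11) were left out by name. The remaining 121 genes, of 60609 gene identifiers in the deposited tables, are called segment genes below. The stretch was chosen by the measured fold changes themselves, because its genes were lower in cells that overexpress NCBP2 than in vector cells. Differences from vector are therefore a description of the 121 genes, and nothing is read from a model's calls in that contrast. The contrast between the 2 NCBP2 clones took no part in the choice and was tested.

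All libraries came from U2-OS, an established human osteosarcoma cell line, grown in DMEM with fetal bovine serum, penicillin and, in the labels' wording, streptavidin. NCBP2 belongs to the nuclear cap-binding complex, which holds the cap at the 5′ end of RNAs made by RNA polymerase II. Clone A1 and clone A4 both overexpress it, and each gave 3 libraries, with letters A, B and C. They are called A1 and A4 below. The vector group had 3 separate clones carrying the empty vector, with 1 library each (Vector2A, Vector3B and Vector1C, called vector A, B and C below). Each NCBP2 arm is thus a single clone, and the labels do not say whether its 3 libraries came from separate cultures, so every p-value measures only the spread between these libraries. RNA was extracted on Direct-zol columns and depleted of ribosomal RNA with a KAPA RNA HyperPrep kit, while the molecule field of the labels reads polyA RNA. Neither the promoter that drives NCBP2 nor the DNA of the clones was analysed here.

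Libraries held 80341579 to 111784333 reads, of which 29234022 to 50554080 were counted in genes. NCBP2 itself stood at 299, 348 and 304 CPM in A1, 796, 1035 and 456 CPM in A4 and 98.3, 90.6 and 98.2 CPM in the vector clones, in the order A, B, C, which fits the labels. Log2 fold changes against vector were 1.73 for A1 (SE 0.242, edgeR adjusted p = 0.0327) and 2.99 for A4 (SE 0.254, edgeR adjusted p = 0.000417). Genes of the mesenchymal and osteoblast lineage were high in all libraries (VIM 1300 to 2081 CPM, SPARC 1397 to 2248, COL1A1 532 to 1882, FN1 442 to 1041, RUNX2 182 to 294), except COL1A2 at 0 to 1.15 CPM. Markers of blood, epithelial, endothelial and neural crest cells were near or at 0, with EPCAM at most at 5.58 CPM and SOX10 without a count. Clone A1 replicate A stood apart, with 21823 genes detected against 25390 to 29787 in the others. It also had the fewest counts in genes, 29234022, on which the number of genes detected depends. Of its reads, 63.6% were not counted in a gene, those with several alignments included. Values without this library are given where they bear on a result. In bulk RNA such as this, fewer cells with a transcript and less of it per cell cannot be told apart.

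Genes along a chromosome arm have no common task, and this stretch holds growth factor receptors and kinases, chromatin enzymes, a cluster of zinc finger genes, and parts of the secretory pathway, the nuclear pore and the cytoskeleton. What such neighbours share is their stretch of DNA. Many of their products work in fixed complexes whose other subunits are encoded outside the stretch, and such partners are described at the end.

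None of 4 promoter motifs searched was present in every segment gene. A window from 250 bases before to 50 bases after the start site was found for 104 of the 121 genes in RefSeq (GRCh38.p14). Windows of 3 genes are printed, chosen after values were seen: MET was among the lowest segment genes in both clones, EZH2 was lower by nearly the same amount in each, and CREB3L2 was lower in A1 than in A4. They run 5′ to 3′ on the strand of the gene, at chr7:116671946-116672245 (plus strand) for MET, chr7:148884242-148884541 (minus strand) for EZH2 and chr7:138002037-138002336 (minus strand) for CREB3L2. Capitals mark matches to the CCAAT box (CCAAT, or ATTGG on the other strand) and the cyclic AMP response element (TGACGTCA).
MET: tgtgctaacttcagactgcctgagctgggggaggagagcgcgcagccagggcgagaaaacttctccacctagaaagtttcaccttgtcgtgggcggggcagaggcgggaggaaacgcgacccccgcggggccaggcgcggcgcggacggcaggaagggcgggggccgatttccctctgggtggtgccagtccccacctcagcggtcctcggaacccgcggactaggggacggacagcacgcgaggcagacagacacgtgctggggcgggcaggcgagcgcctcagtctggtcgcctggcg
EZH2: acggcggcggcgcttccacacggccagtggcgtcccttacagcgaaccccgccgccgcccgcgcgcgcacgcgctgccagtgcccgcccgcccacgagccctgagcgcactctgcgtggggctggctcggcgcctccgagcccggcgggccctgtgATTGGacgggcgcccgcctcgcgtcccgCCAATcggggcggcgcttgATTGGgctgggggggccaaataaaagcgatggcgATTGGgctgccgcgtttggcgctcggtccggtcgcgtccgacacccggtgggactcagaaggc
CREB3L2: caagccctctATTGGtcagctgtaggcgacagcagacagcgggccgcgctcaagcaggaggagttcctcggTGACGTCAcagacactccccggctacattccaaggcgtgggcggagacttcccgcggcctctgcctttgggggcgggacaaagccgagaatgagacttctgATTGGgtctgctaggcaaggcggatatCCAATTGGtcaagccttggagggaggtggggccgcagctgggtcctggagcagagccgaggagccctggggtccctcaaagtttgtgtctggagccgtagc
MET had no match and 69.3% G and C, EZH2 had 4 CCAAT matches, and CREB3L2 had 4 CCAAT matches, a pair of them overlapping on opposite strands, and 1 response element. Over both strands, CCAAT was found in 37 of the 104 segment windows (35.6%) and in 36.6% of 15324 protein-coding promoters. The TATA box (TATAAA) was in 5 (4.81%, against 9.62% of all), the response element in 5 (4.81% against 2.64%: IFRD1, GCC1, CREB3L2, XRCC2 and ESYT2), and the palindromic site of nuclear respiratory factor 1 in 4 (3.85% against 1.72%: ZNF800, MTPN, UBN2 and DNAJB6). None of the 4 motifs contains another. These shares are descriptions of the letters in the windows.

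Both clones had lower RNA of most segment genes than the vector clones, and to a like extent. The median log2 fold change was -0.50 in A1 (interquartile range -0.72 to -0.26, full range -1.42 to 0.49) and -0.46 in A4 (-0.60 to -0.33, full range -1.43 to 0.35), that is 0.71 and 0.73 of the vector level. Over all 21682 genes tested the medians were -0.02 and 0.03. A value below 0 was seen for 116 of 121 genes in A1 (51.6% of all genes tested), for 113 in A4 (46.4%) and for 110 in both (30.1%). The 2 comparisons share the vector libraries, and the rule used both, so nothing is read from these counts. As shares of the counts in genes, the 121 genes held 0.662%, 0.631% and 0.678% in A1, 0.670%, 0.670% and 0.665% in A4, and 1.06%, 0.800% and 0.972% in vector A, B and C.

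The stretch was chosen on this contrast, so the calls against vector that follow test nothing about it, and any excess over all genes was fixed by the choice. No single segment gene passed an adjusted p of 0.05 in edgeR's test, in either clone (0.0646% and 0.115% of all genes did). An unadjusted p under 0.05 went with 62 lower genes in A1 (4.27% of all genes) and 56 in A4 (2.75%), and with 0 higher genes in each (3.24% and 2.5%). DESeq2 called 9 in A1 (1.26% of all genes) and 9 in A4 (0.821%). All 3 libraries of a clone lay below all 3 vector libraries for 56 genes in A1 (8.06%), 57 in A4 (5.86%) and 44 in both (2.26%). Clone A1 lay wholly above vector for 0 genes and clone A4 for 2, DOCK4 and PTN (6.18% of all genes in each clone). Without clone A1 replicate A, the median in A1 was -0.48.

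In each of the 6 NCBP2 libraries the segment sat at about the same depth below vector. The median over the 121 genes of log2 CPM minus the mean of the vector libraries was -0.49, -0.47 and -0.46 in A1 A, B and C, and -0.49, -0.44 and -0.47 in A4. Vector A, B and C lay at 0.19, -0.15 and 0.02, so the vector clones differed among themselves, with vector A the highest of them for 77 genes and vector B the lowest for 74. The 365 genes of the rest of chromosome 7 at the same level had medians of -0.11 to -0.03 in the NCBP2 libraries and of 0.12, -0.05 and -0.05 in vector A, B and C. In the same window, 28 long noncoding RNA genes of at least 1 CPM had medians of -0.62 in A1 and -0.60 in A4. Of them, 26 and 24 were below 0 (51.6% and 46.4% of all genes tested). For these RNAs vector B, at -0.51, lay within the range of the NCBP2 libraries (-0.62 to -0.27). Protein-coding genes of 1 to 4 CPM, 34 in number and outside the rule, had medians of -0.58 and -0.26, with 31 and 23 of them below 0. Their medians in A4 A, B and C were -0.19, -0.56 and -0.08, the last close to vector B at -0.07. The window was chosen on these same libraries, so nothing is read from the values of either set.

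**Figure D1:**
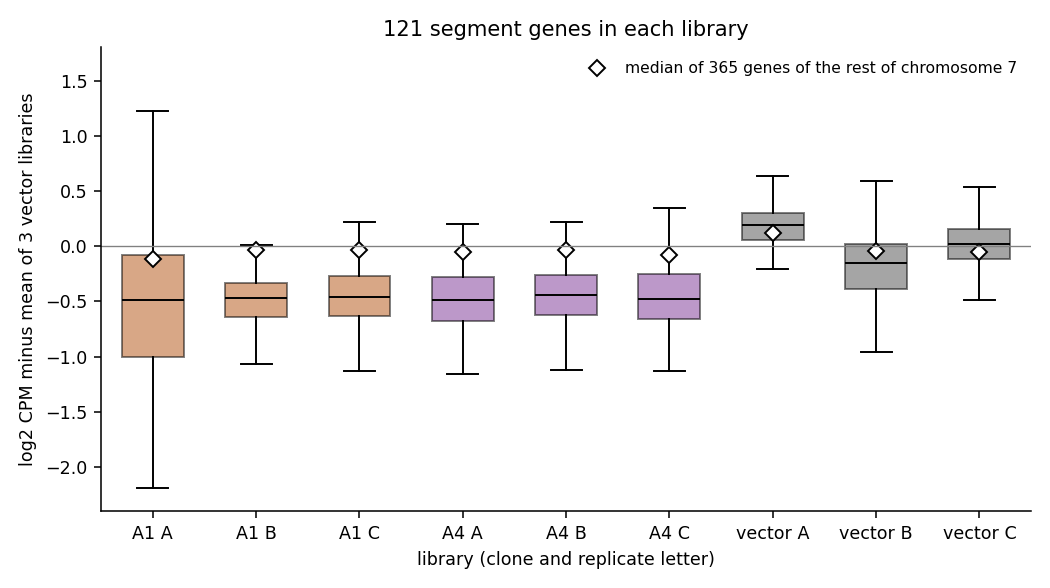
Log2 CPM minus the mean of the 3 vector libraries for the 121 segment genes in each of the 9 libraries (boxes: interquartile range with the median as a line; whiskers: the farthest gene within 1.5 times the box height; genes beyond are not drawn). Diamonds are the medians of 365 genes of the rest of chromosome 7. Box medians of the 6 NCBP2 libraries lie between -0.49 and -0.44, and the widest box is that of clone A1 A.

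The width of the clone A1 A box went with base composition. Among the 61 segment genes at or above the median G and C content, that library had a median of -0.86, against -0.53 and -0.51 in A1 B and C; among the 60 genes below it, the value was -0.18 against -0.44 and -0.39. Vector B differed in the opposite sense, with -0.01 in the first set and -0.36 in the second. After each library's dependence on G and C content was removed, a correction chosen after seeing the data, the NCBP2 libraries had medians of -0.55 to -0.42 and vector A, B and C of 0.16, -0.11 and -0.04. The fold change medians were then -0.53 in A1 and -0.46 in A4. LMBR1, a membrane protein gene whose intron holds a limb enhancer of SHH and which was chosen after values were seen, stood at 84.1, 79.0 and 79.3 CPM in A1, 79.5, 88.1 and 59.2 in A4 and 148, 105 and 141 in vector.

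The medians became lower a few megabases into the window rather than at its first gene. Fold changes of the 10 expressed genes just before it, from PRKAR2B (start 107044705) to THAP5 (start 108554543), had medians of -0.03 in A1 (range -0.35 to 0.22) and -0.23 in A4 (-0.54 to 0.01). The first segment gene, DNAJB9 at chr7:108569867-108574850, encodes a chaperone of the endoplasmic reticulum and had 23.9, 24.1 and 19.2 CPM in A1, 29.1, 25.8 and 20.7 in A4 and 36.1, 20.4 and 28.5 in vector, with overlapping groups. The 10 segment genes before CAV2 had medians of -0.16 and -0.20. From CAV2 to the end, the 111 genes had medians of -0.55 and -0.48. This place was chosen after values were seen and is a description.

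In steps of 5 Mb from the start of the window, the medians in A1 ran -0.11, -0.31, -0.48, -0.56, -0.49, -0.44, -0.47, -0.34, -0.74, -0.63 and -0.35, over 9, 8, 6, 8, 20, 13, 23, 2, 22, 7 and 3 genes. Those in A4 ran -0.17, -0.53, -0.42, -0.42, -0.47, -0.38, -0.46, -0.12, -0.60, -0.61 and -0.54. The lowest median in A1 was that of the ninth step, from CUL1 to XRCC2, where all 22 genes were below 0 in both clones; only that step and the fifth and seventh hold 20 genes or more. It also has the highest median G and C content (51.9%), and with the correction its medians were -0.67 and -0.62. In the first step the vector clones lay far apart (0.44, -0.62 and 0.18 for A, B and C), so that vector B was below every NCBP2 library there. The last segment gene, DYNC2I1 (chr7:158856558-158956747), which encodes a dynein chain of cilia, had 18.8, 11.6 and 11.9 CPM in A1, 14.4, 11.6 and 10.2 in A4 and 20.8, 13.6 and 19.4 in vector, again with overlapping groups.

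**Figure D2:**
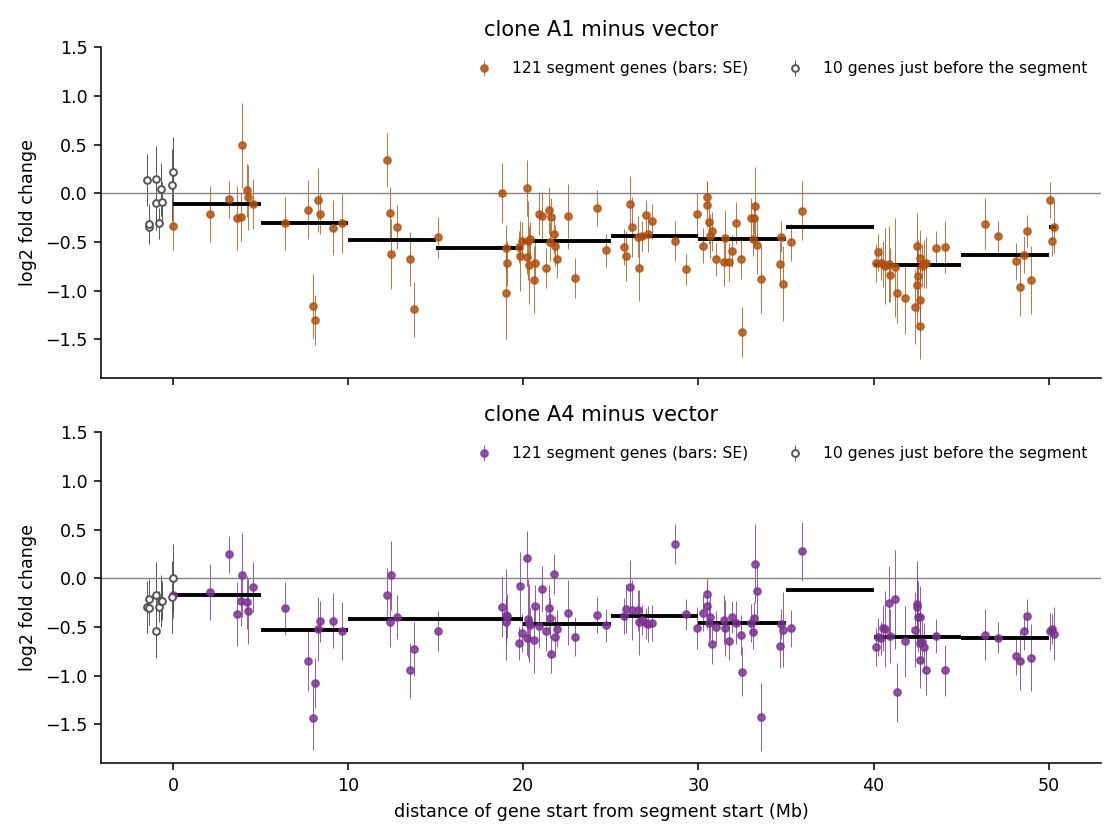
Log2 fold change against vector (dots, with SE bars) of the 121 segment genes by distance of the gene start from the start of the window in Mb, for clone A1 (top) and clone A4 (bottom). Open dots are the 10 expressed genes just before the window and black lines the medians in steps of 5 Mb, which go from -0.11 to -0.56 over the first 4 steps in A1 and from -0.17 to -0.42 in A4.

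The remainder of chromosome 7 had medians of -0.07 in A1 and -0.04 in A4 over its 365 genes. It was close to the vector level up to 80 Mb, where 234 genes had medians of -0.01 and 0.03. The cut at 80 Mb is no part of the rule and no test placed it. Between 80 Mb and the window, 131 genes had medians of -0.22 and -0.21, which lies between the 2 stretches. The vector clones were themselves spread for these genes, with library medians of 0.23 for A, -0.22 for B and -0.03 for C. Clone libraries spanned -0.25 (A4 B) to -0.14 (A1 A), so vector B fell inside their span and a lower level in the clones was not settled there. Over the 22 other chromosomes the medians per chromosome went from -0.31 (chromosome 22) to 0.24 (chromosome 2) in A1 and from -0.13 (chromosome 18) to 0.20 (chromosome 2) in A4. The segment medians lay outside both ranges, by choice of the stretch.

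Clone A4 and clone A1, compared directly, had like levels of most segment genes. No segment gene differed at an adjusted p of 0.05 in edgeR's quasi-likelihood test (0.161% of all genes did), and 7 did at an unadjusted p under 0.05 (6.63% of all genes). Of these, 3 were lower in A4 (2.82%): CAV2, TMEM209 and NCAPG2. The other 4 were higher there (3.81%): CPA4, PTN, CREB3L2 and CHPF2. DESeq2 called 1 gene, PTN (1.13% of all genes), as did edgeR with the G and C correction (0.792% of all genes). All A4 libraries were below all A1 libraries for 5 genes (5.72% of all genes) and above them for 7 (7.92%). The median difference was 0.02 (interquartile range -0.15 to 0.25), beside 0.04 over all genes, and 52 of 121 genes were below 0 (46.8% of all genes). The difference was within 0.25 of 0 for 75 genes and within 0.5 for 109. Its 95% interval reached, in the median gene, 0.52 to either side, lay within 0.5 of 0 for 19 genes and within 1 of 0 for 94, so that a 2-fold difference between the clones lay outside the interval for 94 genes and equality was not shown for any. Without clone A1 replicate A, 3 genes had an unadjusted p under 0.05.

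PTN encodes pleiotrophin, a secreted growth factor that binds heparin and the receptor PTPRZ1, and it lies at chr7:137227341-137343774 on the minus strand. It had 16.7, 12.3 and 14.6 CPM in A1, 22.1, 26.2 and 29.4 CPM in A4 and 20.6, 19.4 and 21.0 CPM in vector. Every A4 library was above, and every A1 library below, all vector libraries. The difference of A4 from A1 was 0.84 (SE 0.206, 95% interval 0.39 to 1.28), with an adjusted p of 0.260 by edgeR, 0.0126 by DESeq2 and 0.0252 by edgeR with the G and C correction. CHPF2, which encodes an enzyme that extends chondroitin sulfate chains, had the highest difference, 0.97 (SE 0.328, interval 0.26 to 1.69, edgeR adjusted p = 0.511). Its counts were few, at 1.79, 3.47 and 3.31 CPM in A1, 4.74, 6.25 and 5.91 in A4 and 6.82, 9.15 and 6.24 in vector, and its lowest library was clone A1 A.

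At the other end was CAV2 (chr7:116287380-116508541), which encodes caveolin 2, with a difference of -0.68 (SE 0.308, interval -1.35 to -0.01, edgeR adjusted p = 0.740). CAV2 stood at 75.3, 41.2 and 61.1 CPM in A1, 40.1, 44.6 and 25.9 in A4 and 79.6, 39.6 and 80.2 in vector, so that vector B was below each clone A1 library. TMEM209, which encodes a protein of the nuclear envelope, differed by -0.54 (SE 0.193, interval -0.96 to -0.12, edgeR adjusted p = 0.564). Its levels were 46.1, 46.1 and 49.3 CPM in A1, 29.2, 35.6 and 32.8 in A4 and 65.4, 42.3 and 59.6 in vector, with all A4 libraries below all others. SLC4A2, an anion exchanger gene, was at 0.68 (SE 0.447, edgeR adjusted p = 0.819) and MGAM2, a relative of the gut maltase gene, at -0.54 (SE 0.343, edgeR adjusted p = 0.812); both intervals hold 0. SLC4A2 counts were 4.68, 14.0 and 16 CPM in A1 and 15.1, 11.6 and 29.2 in A4, where single libraries set the value: A1 A was the lowest and A4 C the highest.

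**Figure D3:**
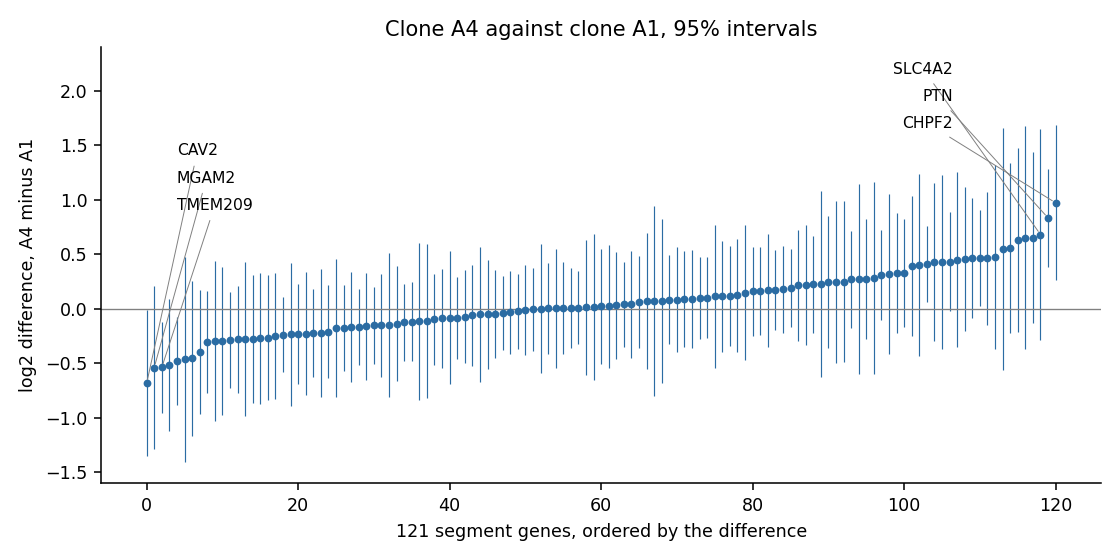
Log2 difference of clone A4 from clone A1 (dots) with 95% intervals (bars) for the 121 segment genes, ordered by the difference. The 3 lowest and 3 highest genes are named; 114 intervals hold 0, and the differences run from -0.68 (CAV2) to 0.97 (CHPF2).

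The role lists below give counts of genes wholly below vector in both clones. These stand beside 44 of the 121 segment genes and 2.26% of all genes tested. The stretch was chosen for lower values, so nothing is read from these counts or from those below 0. Receptors, ligands and signalling proteins made up 14 of the segment genes. Their medians were -0.72 in A1 and -0.62 in A4, with 13 below 0 in each clone and 2 wholly below vector in both, MET and PRKAG2. MET (chr7:116672196-116798377) encodes the receptor of hepatocyte growth factor. It had 95.9, 70.8 and 127 CPM in A1, 116, 106 and 120.0 CPM in A4 and 235, 162 and 324 CPM in vector. No NCBP2 library reached the lowest vector library. The log2 fold change was -1.30 (SE 0.258) in A1 and -1.08 (SE 0.256) in A4, and 0.22 between the clones (interval -0.33 to 0.77).

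CAV1 (chr7:116524994-116561179), which encodes caveolin 1, the scaffold of the membrane pits called caveolae, sits between CAV2 and MET. Its levels were 414, 291 and 641 CPM in A1, 425, 367 and 319 CPM in A4 and 1178, 527 and 1299 CPM in vector. Only clone A4 was wholly below vector, since vector B was below clone A1 C. Its fold change was -1.16 (SE 0.328) in A1 and -1.43 (SE 0.33) in A4, the latter the lowest of the 121 genes in that clone. Podocalyxin, a sialylated membrane protein encoded by PODXL, had 109, 123 and 103 CPM in A1, 135, 161 and 109 in A4 and 243, 218 and 151 in vector. TSPAN12, a tetraspanin gene, went against its neighbours in A1, with 9.85, 7.55 and 9.0 CPM there, 7.86, 5.43 and 5.17 in A4 and 6.49, 5.97 and 8.29 in vector; its fold change of 0.35 (SE 0.277) had a 95% interval that held 0.

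Other signalling genes were chosen after values were seen. RHEB, the small GTPase that activates mTORC1, stood at 65.1, 70.6 and 65.7 CPM in A1, 68.4, 91.0 and 45.2 in A4 and 137, 89.4 and 107 in vector. BRAF, a kinase of the MAP kinase cascade, stood at 126, 106 and 93.4, 105, 103 and 85.2 and 159, 91.4 and 153 in the same order. Vector B, at 91.4 CPM, was below 5 of the 6 NCBP2 libraries for BRAF, and fold changes were -0.31 and -0.45. SMO, the transducer of Hedgehog signals, had fold changes of -0.89 (SE 0.341) and -0.63 (SE 0.339), with A1 B and A4 C above the lowest vector library.

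Genes of chromatin and transcription numbered 14, of which 13 in A1 and 14 in A4 were below 0, with medians of -0.38 and -0.47. All libraries of both clones lay below vector for 4 of them: CREB3L2, HIPK2, EZH2 and KMT2C. HIPK2, a nuclear kinase that acts on transcription factors, had 138, 167 and 209.5 CPM in A1, 177, 199 and 206 in A4 and 282, 260.5 and 281 in vector. KMT2C, a histone H3 lysine methyltransferase, had 115, 125 and 109, 119, 105 and 119 and 200.1, 133 and 185 CPM in that order. Fold changes were -0.68 (SE 0.17) and -0.50 (SE 0.169) for HIPK2. They were -0.57 (SE 0.175) and -0.60 (SE 0.175) for KMT2C.

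EZH2, the methyltransferase of Polycomb complex PRC2, was at 45.4, 45.2 and 51.9 CPM in A1, 43.4, 49.3 and 50.2 in A4 and 85.2, 53.9 and 77.8 in vector. Its clones differed by 0.00 (interval -0.42 to 0.42). CREB3L2, a transcription factor of the secretory pathway, was at 61.0, 70.9 and 61.1, 83.6, 93.3 and 80.1 and 115, 118 and 97.6 CPM. All A4 libraries were above all A1 libraries and below all vector libraries, and the clones differed by 0.41 (SE 0.159, interval 0.07 to 0.76). UBN2, a subunit gene of the HIRA histone chaperone, had groups that overlapped, with vector B the lowest of all libraries at 70.2 CPM.

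The 6 zinc finger genes of 7q36 (ZNF282, ZNF398, ZNF467, ZNF746, ZNF777 and REPIN1) had medians of -0.75 and -0.51. All 6 were below 0 in both clones. With the G and C correction their medians were -0.61 and -0.57. Clone A1 A was the lowest A1 library for each of them except ZNF398. ZNF398 had 8.79, 10.7 and 7.94 CPM in A1, 9.56, 12.9 and 9.37 in A4 and 15.7, 15.5 and 14.2 in vector. ZNF746 had 6.12, 11.5 and 12.9, 10.4, 11.7 and 14.3 and 18.0, 17.8 and 19.0 CPM in that order. In both genes, every NCBP2 library was below every vector library. REPIN1, which encodes a zinc finger protein that binds an origin of replication, had 9.32, 9.62 and 14.5, 14.2, 7.05 and 23.8 and 24.2, 26.3 and 19.9 CPM, with A4 C inside the vector range. The median difference of A4 from A1 over the 6 genes was 0.34, and 0.04 with the G and C correction. ZNF467 and ABCB8 lay just inside the limit of the rule, with means of 4.33 and 4.31 CPM, while HILPDA, AGBL3 and EPHB6 fell just outside with 3.59, 3.61 and 3.81 CPM. These last 3 had fold changes of -0.14, -0.13 and -0.15 in A1 and -0.14, -0.05 and -0.07 in A4.

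**Figure D4:**
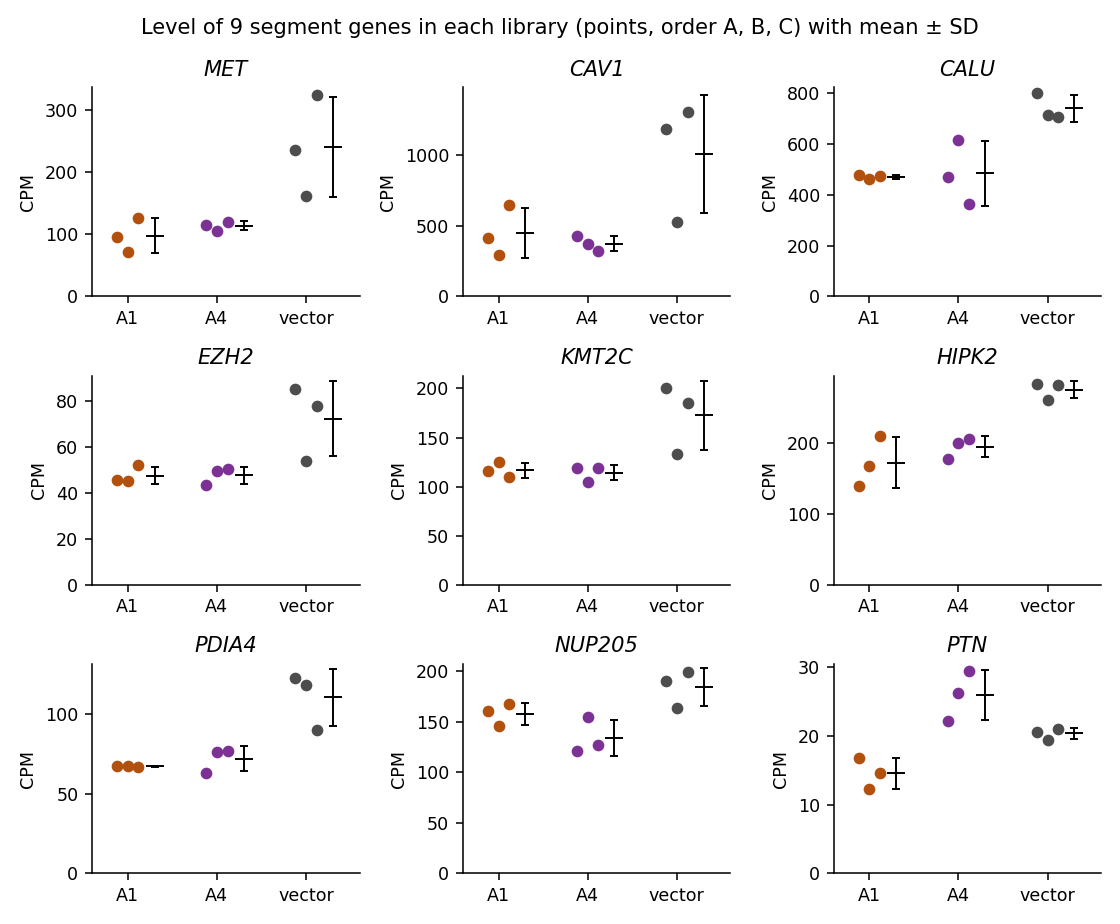
CPM of 9 segment genes in each library (dots, in the order A, B, C) with the mean and SD (bars) for clone A1, clone A4 and the vector clones; each panel has its own axis from 0. In 6 panels (MET, CALU, EZH2, KMT2C, HIPK2 and PDIA4) all NCBP2 libraries lie below all vector libraries, while in the PTN panel clone A4 lies above vector.

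All 17 genes of the secretory pathway, of vesicle traffic and of the lysosome were below 0 in both clones. Their medians were -0.68 in A1 and -0.48 in A4, and 11 of them were wholly below vector in both (2.26% of all genes). CALU (chr7:128739292-128773400) encodes calumenin, a calcium-binding protein of the endoplasmic reticulum. It stood at 475, 462 and 472 CPM in A1, 469.8, 616 and 364 CPM in A4 and 799, 712 and 705 CPM in vector. All 6 NCBP2 libraries were below the lowest vector library, and the libraries of clone A1 were closer together than those of clone A4 (means 469.7 ± 6.63 and 483 ± 127 CPM, SD, n = 3 each). PDIA4, a disulfide isomerase gene of the same compartment, had 67.1, 67.2 and 67.0 CPM in A1, 62.8, 76.2 and 77.0 in A4 and 123, 118 and 90.2 in vector, with fold changes of -0.72 (SE 0.171) and -0.62 (SE 0.171).

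EXOC4, a subunit of the exocyst that tethers vesicles to the plasma membrane, was at 49.3, 63.1 and 60.0 CPM in A1, 58.9, 66.2 and 60.0 in A4 and 99.1, 82.7 and 76.8 in vector. ATP6V0E2, a small subunit of the proton pump of lysosomes, was at 5.17, 5.37 and 5.92, 3.86, 3.91 and 7.11 and 13.1, 11.0 and 9.36 CPM. Both genes had no overlap between NCBP2 and vector libraries, and ATP6V0E2 had fold changes of -1.02 (SE 0.304) and -1.17 (SE 0.304).

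Genes of the cytoskeleton and of adhesion (12) had medians of -0.35 and -0.46, with 12 and 11 below 0, and only CEP41 was wholly below vector in both clones. CALD1, which encodes the actin-binding protein caldesmon, had 569.9, 425 and 296 CPM in A1, 497, 442 and 371 in A4 and 789, 301 and 552 in vector. Vector B, at 301 CPM, was among the lowest libraries, so the groups overlapped. FLNC, the filamin C gene, ranged from 64.4 to 264 CPM with no separation of groups, and clone A1 A was its lowest library. Myotrophin, encoded by MTPN and a regulator of actin capping, had 319, 272 and 320.2 CPM in A1, 258, 329 and 221 in A4 and 399, 305 and 408 in vector. DOCK4, an activator of the GTPase Rac, lies before CAV2 and had 20.7, 22.1 and 20.8 CPM in A1, 24.9, 28.1 and 25.9 in A4 and 24.7, 18.4 and 23.4 in vector. Its fold changes were -0.06 (SE 0.19) and 0.25 (SE 0.19).

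Mitochondrial and metabolic genes (12) had medians of -0.34 in each clone, with 12 and 11 below 0, and 2 (MRPS33 and SSBP1) were wholly below vector in both. AKR1B1, the aldose reductase gene, had 28.4, 57.3 and 56.6 CPM in A1, 57.1, 51.6 and 70.4 in A4 and 83.0, 73.6 and 66.0 in vector. STMP1, which encodes a short protein of the mitochondrial inner membrane, had 84.1, 84.9 and 95.4, 84.3, 104 and 66.8 and 127, 103 and 123 CPM. A single library, A4 B, kept clone A4 from lying wholly below vector for STMP1. SSBP1, the gene of the single-strand DNA-binding protein of mitochondria, had 63.3, 61.3 and 65.0, 55.1, 61.8 and 53.8 and 86.6, 65.8 and 73.7 CPM, with fold changes of -0.25 and -0.40.

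Of 13 genes for RNA handling, nuclear transport and translation, all were below 0 in both clones, with medians of -0.39 and -0.48 and 5 wholly below vector in both (RBM28, TNPO3, CNOT4, ABCF2 and NOM1). NUP205, a scaffold of the nuclear pore, had 159.9, 146 and 167 CPM in A1, 121, 154 and 127 in A4 and 190.4, 164 and 198 in vector. Only its A4 libraries were all below vector. ZC3HAV1, the antiviral zinc finger protein ZAP that binds CpG-rich RNA, was close to vector, with 161, 150.2 and 187, 141, 178 and 138 and 158, 167 and 184 CPM and fold changes of -0.03 (SE 0.163) and -0.16 (SE 0.163). SND1, a nuclease and transcription coactivator, had 61.9, 94.4 and 83.0, 91.5, 91.5 and 118 and 147, 155 and 91.7 CPM, with vector C the low one of its group.

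The 12 genes for ubiquitin handling, chaperones, DNA repair and mitosis were all below 0 in both clones, with medians of -0.57 and -0.51, and 8 were wholly below vector in both. UBE2H, a ubiquitin-conjugating enzyme gene, had 87.0, 63.6 and 63.2 CPM in A1, 79.4, 105 and 65.7 in A4 and 136, 114 and 114 in vector. DNAJB6, a chaperone that holds aggregating proteins, had 99.3, 87.9 and 82.0, 91.3, 101 and 79.1 and 137, 109 and 108 CPM. In both, the highest NCBP2 library was under the lowest vector library. CUL1, the scaffold of SCF ubiquitin ligases, chosen after values were seen, had the same fold change of -0.71 (SE 0.195) in each clone. NCAPG2, a subunit of condensin II, had 189, 151 and 204 CPM in A1, 117, 142 and 130.5 in A4 and 197, 149 and 223 in vector, and only the A4 libraries were all below vector. The clones differed by -0.48 (SE 0.186, interval -0.88 to -0.07), short of the adjusted threshold in edgeR's test.

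The 21 genes in no role list had medians of -0.49 and -0.36, with 18 and 16 below 0. TMEM178B, which encodes a membrane protein, was the lowest of all segment genes in A1. It had 4.04, 4.97 and 5.43 CPM in A1, 5.74, 7.55 and 6.64 in A4 and 14.0, 11.2 and 13.6 in vector, with fold changes of -1.42 (SE 0.256) and -0.96 (SE 0.252). MGAM2 had 9.57, 8.76 and 4.37, 7.17, 3.68 and 4.74 and 16.1, 13.6 and 12.2 CPM, fold changes of -0.88 and -1.42, and shares long similar stretches with MGAM. LSMEM1, a single-pass membrane protein gene, had the highest value in A1, 0.49 (SE 0.434), from 8.69, 4.43 and 3.74 CPM in A1 against 5.59, 2.15 and 4.22 in vector. CCDC136 was close to vector in both clones, with 0.06 and 0.21. For 11 segment genes the annotation has another protein-coding gene on the same strand that overlaps them, and reads that fit both were not counted. The longest overlaps of gene spans were LUC7L2 with FMC1-LUC7L2 (81240 bases) and ABCF2 with ABCF2-H2BK1 (15683 bases). Others were LUC7L2 with FMC1 (5970 bases), SSBP1 with TAS2R4 (5018 bases) and IFRD1 with LSMEM1 (165 bases).

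Partners of segment genes that are encoded elsewhere were, as a group, near the vector level. From 15 complexes or pathways, 97 of 99 listed partner genes were tested, and 0 passed an adjusted p of 0.05 in edgeR's test in any of the 3 contrasts (0.0646%, 0.115% and 0.161% of all genes). Their medians were 0.00 in A1, -0.03 in A4 and -0.05 between the clones. An unadjusted p under 0.05 was seen in A1 for 2 lower partners (4.27% of all genes), COPA and COPG1 of the COPI vesicle coat. It was seen there for 4 higher ones (3.24%), MTF2, DPY30, WDR5 and NUP35. In clone A4 there were 0 lower (2.75%) and 4 higher (2.5%), WDR5, EHD2, NUP35 and TSC1. Between the clones there were 2 lower (2.82%) and 2 higher (3.81%). Counts this small among 97 partners are not read as a result. At an adjusted p of 0.05, DESeq2 likewise called 0 partners in each contrast (1.26%, 0.821% and 1.13% of all genes). The lists were drawn up with results of these libraries known. Segment genes named beside their partners below were chosen for lower values against vector. A gap between them and their partners was therefore largely fixed by the choice, and nothing is read from it.

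Within PRC2, EZH2 had fold changes of -0.61 and -0.60, whereas its 8 partners had medians of 0.11 and 0.00. RBBP4, the histone-binding subunit with the most counts of them, was at 0.09 and -0.11. For the KMT2C and KMT2D complexes, of which KMT2C and PAXIP1 are segment genes, the 8 other genes listed had medians of 0.05 and -0.01. KMT2D is 1 of these 8. In the inner ring of the nuclear pore, NUP205 had -0.22 and -0.46, and its 4 partners had medians of 0.36 and 0.07. Among these, NUP35 was at 0.58 and 0.57 and NUP155, the one with the most counts, at 0.05 and -0.23 (SE 0.15).

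Exocyst partners of EXOC4 (8 genes) had medians of 0.09 and 0.03, and CCR4-NOT partners of CNOT4, a ubiquitin ligase of that deadenylase, 0.07 and -0.09. CNOT1, the scaffold of that complex, was at 0.00 and -0.21, beside -0.44 and -0.43 for CNOT4. SCF partners of CUL1 (5 genes) had 0.14 and -0.03. In condensin II, 4 partners of NCAPG2 had 0.55 and 0.27, with SMC4 at 0.84 (SE 0.452) in A1, a wide error.

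Some partner lists were themselves below 0. The 7 other COPI coat genes, beside COPG2 at -0.68 and -0.52, had medians of -0.28 and -0.21, with 6 of 7 below 0 in each clone; COPA was at -0.47 (SE 0.18, edgeR adjusted p = 0.535) in A1. The 14 proton pump partners had -0.21 and -0.13. The 4 caveolar partners of CAV1 and CAV2 had -0.31 in A1 and 0.11 in A4, and CAVIN1, which coats caveolae, was at -0.38 (SE 0.344) and 0.10 (SE 0.344). RAF and MEK kinases beside BRAF (5 genes) had -0.23 and -0.01, mTORC1 and TSC genes beside RHEB (6 genes) -0.04 and 0.09, and Arp2/3 subunits beside WASL (6 genes) 0.10 and -0.02. The 2 other capping protein genes had 0.09 and 0.04 and the 6 partners of LSM8 in the ring that binds U6 RNA -0.07 and -0.08. Of the LSM8 partners, LSM5, on chromosome 7 before the window, was at 0.05 and -0.38 (SE 0.202 in each).

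**Figure D5:**
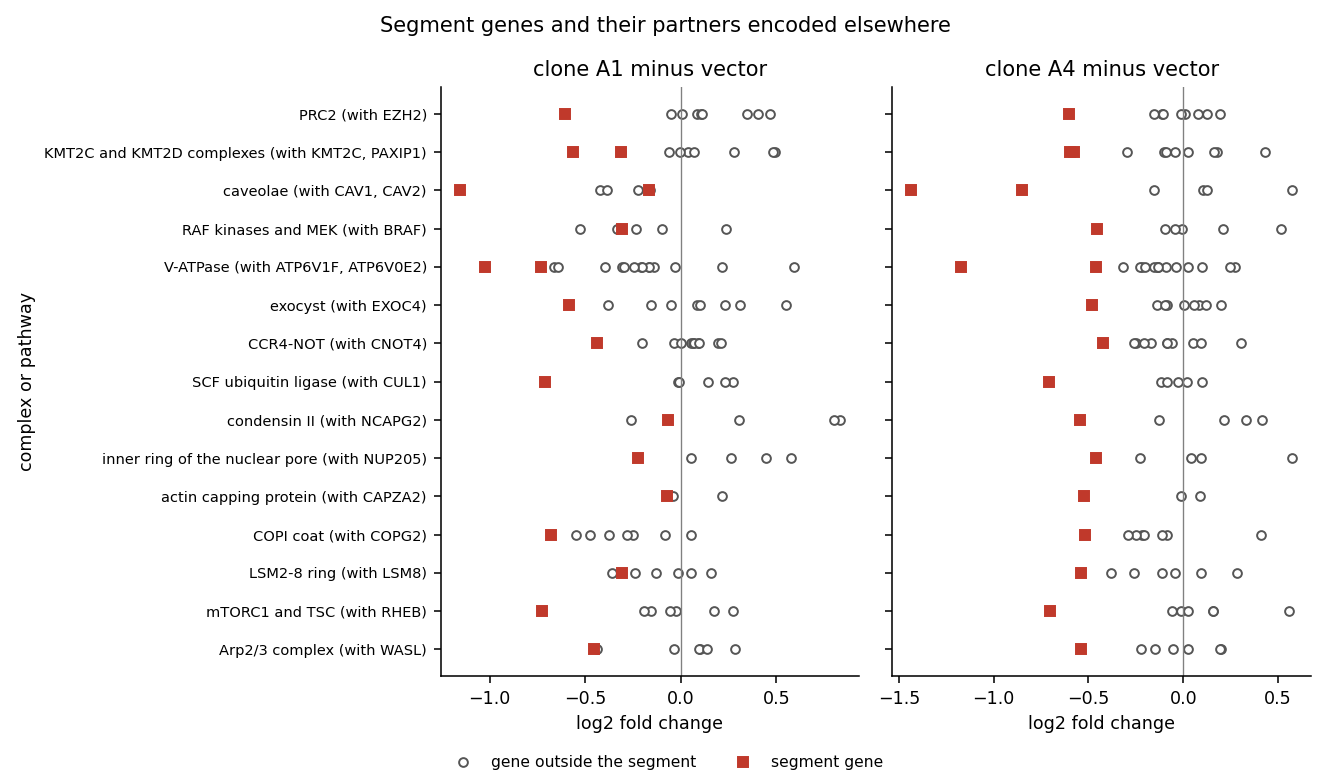
Log2 fold change against vector in A1 (left) and clone A4 (right) of segment genes (squares) and of their partners encoded outside the segment (open circles), for 15 complexes or pathways. Partner medians over all 97 genes are 0.00 and -0.03. Squares lie left of 0 in every complex, in a stretch chosen for lower values.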

How the data were processed

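RNA was measured in 9 libraries of 3 groups, set from the titles. The deposited values are read counts for each gene, whole and not normalized. STAR 2.7.1a and GRCh38 are named in the submitters' processing notes, and the annotation release is not given in the sources used here. Column 3, the strand that held most counts, was used; the other strand held 5.51% to 6.42% of what the strands held together. Left out were 4 summary lines without a gene (44.5% to 63.6% of reads). Reads with several alignments (6.80% to 16.3% of reads) are in those lines, so genes with close copies, such as METTL2B, MGAM, MGAM2 and TCAF1, are uncertain. Symbols and coordinates came from GENCODE release 44, which matched 60295 of 60609 identifiers without their version; 70 of the 121 segment genes had the same version.

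Contrasts were tested by quasi-likelihood with edgeR 4.0.16 (R 4.3.3, robust) in 1 fit of 3 groups after filterByExpr, which 21682 genes and among them all 121 segment genes passed, and TMM scaling. P-values were adjusted by Benjamini and Hochberg over all genes, at 0.05, two-sided. CPM used TMM-scaled totals, and log2 CPM a prior count of 2. Before use, the fit was tested on counts simulated for a contrast of A4 with A1 only. Alternatives were DESeq2 1.42.0 (its test and its size factors), counts without regard to strand, no filter, only the libraries compared, other CPM limits, each library left out, the replicate letter as a block and, added after seeing the data, a loess correction (span 0.5) for G and C content of the longest transcript. A median over libraries or genes carries no test.

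The segment genes, role lists and partner lists were chosen with earlier results of these data known. Named genes were, per role list, the 3 with the highest mean CPM, the 3 lowest and 3 highest fold changes per contrast, the genes nearest the CPM limit, and the first and last genes. Others are said to be chosen after values were seen. Among partners, the one with the highest mean CPM was named in some complexes, as were those at an unadjusted p under 0.05 against vector. One gene that this rule names is not reported here.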

Additional observations from a re-analysis of the deposited data

How the results depend on the processing

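The lower segment medians kept their direction under all alternatives run, from -0.56 to -0.47 in clone A1 and from -0.55 to -0.40 in clone A4. Leaving out 1 library at a time gave -0.56 to -0.48 and -0.55 to -0.40, with vector B and vector A the libraries that moved them most. How many segment genes passed the adjusted threshold depended on the setting. Nothing is read from these calls, because the genes were chosen on the same contrasts. Against the 0 reported, DESeq2 called 9 in clone A1 (1.26% of all genes) and 9 in clone A4 (0.821%), no filter on low counts 12 (0.827%) and 7 (0.432%), and the G and C correction 8 (0.75%) and 3 (0.51%). Leaving out 1 library gave 0 to 1 in clone A1 and 0 to 2 in clone A4. Without vector B, MET passed in both clones and CAV1 in clone A4 (0.0613% and 0.153% of all genes), the causes not being tested.

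Between the clones, 0 segment genes became 1, PTN, with DESeq2 and 1, also PTN, with the G and C correction. The median difference of A4 from A1 was 0.0631 with genes of at least 1 CPM and -0.0071 with genes of at least 16 CPM, and ran from -0.0068 to 0.0375 with 1 library left out; its sign is therefore not settled.

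The labels do not say whether the replicate letters pair the libraries. Correlations of same-letter deviations ran from -0.102 to 0.179, and 6 of 9 were over 0.1. Those of unlike letters ran from -0.271 to 0.221, so a pairing by letter was not settled. With the letter as a replicate block, 1 segment gene passed in clone A1 and 1 in clone A4, MET in both (0.175% and 0.244% of all genes), and 0 between the clones. Fold changes of single named genes against vector were compared by size, not by call. Of these, 4 in clone A1, all with the G and C correction, moved by more than the spread between replicates (1 SD) and 652 did not, and none of 656 did in clone A4. Differences between the clones passed the adjusted threshold in 2 cases of 96, both PTN.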
